A study of Macaca mulatta with 3 samples.

Results

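Peaks of H3K4me3, a histone mark found at gene starts, were unevenly spread along the chromosomes in rhesus macaque cortex. The regions described here are the megabases fullest of such peaks away from chromosome ends, on 16 of the 20 autosomes. They were chosen by the number of H3K4me3 peaks in the deposited list. Chromosomes 1 to 9, 11 to 15, 17 and 18 were divided into 1 Mb bins from position 0, bins under 2 Mb from either end were left out, and each peak went to the bin of its centre. A bin with 30 or more peaks is called dense. This gave 54 dense bins among 2313 interior bins, and they held 2062 of the 24248 peaks of the whole list (8.50%). The 1588 interior bins with 1 to 10 peaks, called sparse, held 7364 peaks and served for comparison.

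Chromatin came from frozen prefrontal cortex (superior frontal gyrus) of 1 male macaque aged 3389 days. One library was made after precipitation with an antibody against H3K4me3, and the input library came from fragmented DNA of the same tissue without precipitation. The libraries held 10023993 ChIP tags and 9162762 input tags, so the genome means were 3.5 and 3.20 tags per kb. A library of RNA pooled from 5 male animals was not analysed here. There is 1 library of each kind and 1 animal, so no difference below has a replicate check, and no test was made.

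Trimethylation of lysine 4 on histone H3 is laid down by SET1 and MLL complexes and is found at the start sites of active or poised genes, most of them in CpG islands. Genes are clustered in mammalian genomes, and gene-dense stretches tend to be GC-rich, early replicating and open. In brain tissue the mark is read from a mixture of neurons and glia, so a peak averages over cell types. Genes, markers of those cell types and base content could not be assigned to these regions, because the RefSeq gene table at hand describes another assembly: on 19 of 21 chromosomes it places a gene over 1 Mb past the last tag. For the same reason no DNA sequence is printed.

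The dense bins lay on 12 chromosomes. Chromosome 1 carried 15 of them with 567 peaks, and chromosome 14 carried 8 with 360 peaks. Chromosome 11 had 6 dense bins, chromosomes 4 and 15 had 5 each, and chromosomes 2, 3 and 13 had 3 each. Chromosomes 6 and 7 had 2 each and chromosomes 5 and 12 had 1 each, while chromosomes 8, 9, 17 and 18 had none. Dense bins made up 2.33% of interior bins and held 12.5% of interior peaks. They held a median of 36 peaks, and sparse bins a median of 4. Of the 54 dense bins, 17 held 40 or more peaks and 5 held 50 or more. Near the threshold the list was continuous, with 8 bins of 29 peaks just outside and 5 bins of 30 just inside. The median peak width was 1000 bases in bins of 29 and of 30. The median ratio of ChIP to input tags, defined below, was 3.35 in bins of 29 and 3.66 in bins of 30. One step farther out, in 4 bins of 28 and 3 bins of 31, the median width was 1200 bases in both. The ratios there were 3.36 and 4.11, so values of so few bins vary.

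The fullest bins were neighbours on chromosome 14. The bin at chr14:8000001-9000000 held 72 peaks, which covered 11.9% of its length. In it the ChIP library had 8133 tags, of which 36.4% fell in peaks, and the input had 4781. The next bin, at chr14:9000001-10000000, held 61 peaks, with 7277 ChIP and 4729 input tags. Both belonged to a run of 7 adjacent dense bins from 6000001 to 13000000 with 327 peaks, or 36, 39, 72, 61, 45, 44 and 30 peaks in order. The bin before this run held 25 peaks and the bin after it held 11. At chr14:18000001-20000000, 5 Mb past the run, 2 bins held no peak.

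Chromosome 1 carried the other long runs. Bins from 132000001 to 136000000 held 33, 56, 33 and 40 peaks, and this run was sharply bounded, with 10 peaks in the bin before and 5 in the bin after. A run of 3 bins from 4000001 to 7000000 held 51, 41 and 32 peaks. The plot of peak counts around these runs shows a single summit on chromosome 14 and several dense stretches a few megabases apart on chromosome 1.

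**Figure D1:**
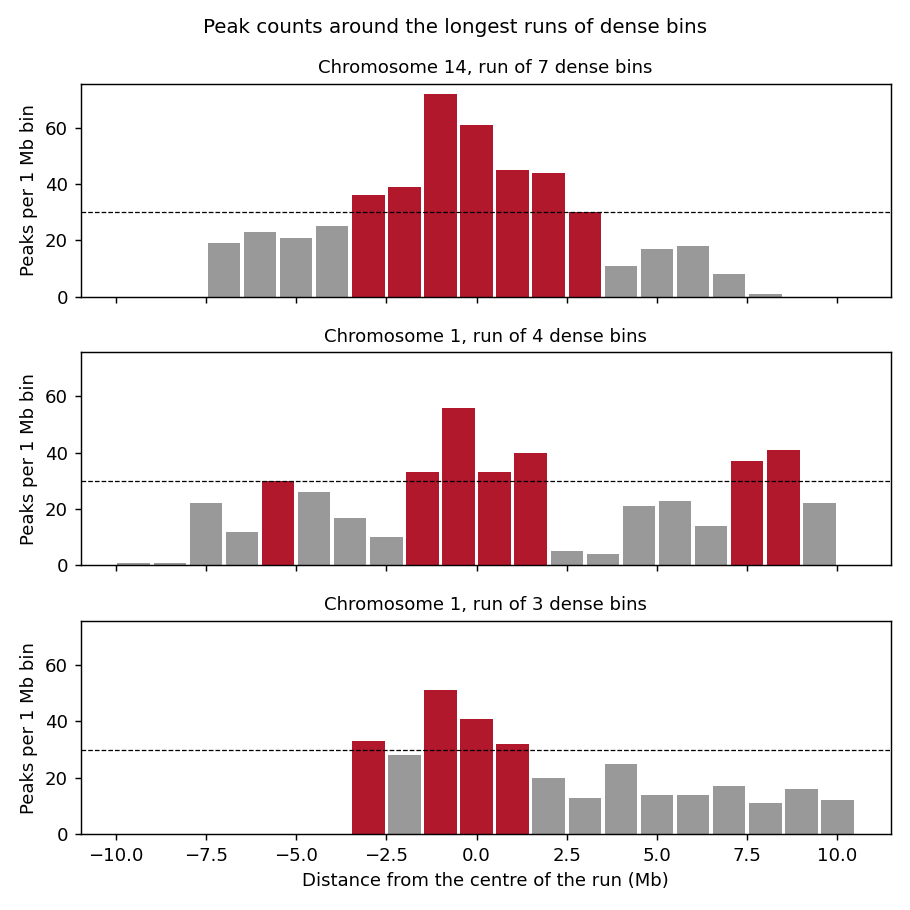
Peaks per 1 Mb bin (y axis) within 10 Mb of the centre of each of the 3 longest runs of adjacent dense bins (x axis, distance in Mb), with dense bins in red, other bins in grey and the threshold of 30 as a dashed line. Bins near chromosome ends were left out and are not drawn. The run on chromosome 14 reaches 72 peaks, and the runs on chromosome 1 reach 56 and 51.

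Other bins among the 10 fullest lay on chromosomes 2, 4 and 11. On chromosome 4, where the macaque also carries its major histocompatibility complex (its place in these coordinates was not determined), the bin at chr4:31000001-32000000 held 55 peaks and the bin at chr4:26000001-27000000 held 47. The second of these had the highest ratio of ChIP to input over a whole dense bin, 1.67, with 5968 ChIP and 3267 input tags. The bin at chr11:54000001-55000000 held 49 peaks and the bin at chr2:87000001-88000000 held 46. Over the 54 bins as a whole, 30 belonged to 11 runs of 2 or more bins and 24 stood alone. Dense bins were also found nearer to chromosome ends than interior bins in general: 29.6% of them (16 of 54) lay under 10 Mb from an end, against 11.1% of all interior bins.

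Crowding faded over several megabases. Bins next to a dense bin held a median of 22 peaks (interquartile range 15 to 36), and 36.2% of them were dense themselves. At a distance of 2 Mb the median was 17 peaks, at 3 Mb it was 15.5, and at 5 Mb it was 12. Neighbours of sparse bins held a median of 4 peaks at 1 Mb and 5 at 5 Mb, and 0.379% of those at 1 Mb were dense. A bin can count in several of these pairs, so they are a description of these chromosomes.

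Within dense bins the peaks were close together, which the rule itself largely fixes. Neighbouring peaks of the same bin were a median of 11.4 kb apart (interquartile range 3.40 to 30.6), against 84.2 kb (25.2 to 179.5) in sparse bins. Of 2008 such pairs in dense bins, 32.1% were under 5 kb apart, and 12.9% were under 1 kb. In sparse bins the shares were 14.1% and 8.41% of 5776 pairs. The share at 1 to 5 kb was 19.2% in dense and 5.70% in sparse bins. In windows of 100 kb, dense bins were filled almost throughout: 7.78% of 540 windows had no peak and the median was 3. The fullest window, at chr14:10100001-10200000, held 16 peaks. The longest stretch between neighbours inside a dense bin was 305.2 kb.

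Some of the count came from peaks that the list splits at short gaps. With peaks under 1 kb apart merged, the 54 bins held 22 to 58 peaks with a median of 32, and 36 of them still held 30 or more. The bin at chr12:82000001-83000000 went from 31 to 22 peaks, while the bin at chr3:39000001-40000000 kept all of its 30. The fullest bin, on chromosome 14, held 58 after merging.

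Peaks in dense bins were somewhat wider than those in sparse bins. Their median width was 1200 bases (interquartile range 800 to 1800), against 1000 bases (800 to 1600). Peak edges lie on a grid of 200 bases, so this difference is 1 step. It was not shared by all chromosomes: the median was wider in dense bins on 6 of 12, equal on 5 and narrower on 1. The difference was clearer at the far end. Broad H3K4me3 domains are known from genes of cell identity. No gene could be assigned here, and whether the wide peaks below are such domains was not tested. Peaks of 2600 bases or more made up 8.97% of the members (185 peaks) and 5.36% of the peaks in sparse bins (395). The share was 6.19% over all 24248 listed peaks and 8.13% in bins of 20 to 29 peaks. Narrow peaks of up to 400 bases made up 8.15% of the members, 11.1% of the peaks in sparse bins and 10.5% of all listed peaks.

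A typical member held 26 ChIP tags (interquartile range 16 to 46) and 7 input tags (4 to 11). Peaks in sparse bins held 24 ChIP tags (15 to 43) and 5 input tags (3 to 9). The ChIP counts of both sets overlapped almost throughout, and their median was higher in dense bins on 6 chromosomes and lower on 5. The input was the quantity that differed more evenly: its median per peak was higher in dense bins on 11 of 12 chromosomes and equal on 1. Per kb of peak, the members held a median of 23.3 ChIP and 6 input tags, and peaks in sparse bins 25 and 5. Strands were balanced, with 49.6% of the members' ChIP tags on the plus strand.

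Enrichment of a peak is given as its ratio of ChIP to input tags, scaled by the totals of both libraries (1.09 ChIP tags for each input tag), and peaks without an input tag (30 members) were given 3 tags there. Peaks were listed from the same libraries and the bins were chosen on the list, so these ratios are a description. The median ratio was 3.47 in dense bins (95% interval from order statistics 3.35 to 3.61), and the middle 50% of members lay between 2.56 and 5.03. In sparse bins it was 4.31 (4.27 to 4.39), and the middle 50% lay between 2.97 and 6.40. The intervals treat peaks as independent and cover neither libraries nor animals. The median was lower in dense bins on 12 of 12 chromosomes, where it ran from 3.04 to 4.31, against 3.92 to 4.70 in sparse bins. A ratio of at least 4 was reached by 824 members (39.96%) and by 4062 peaks of sparse bins (55.2%), while 45.7% of all 24248 listed peaks reached it. Since the rule used this contrast, nothing is read from that share. The deposited value had a median of 7.24 on the scale of minus log10 in dense bins and 8.95 in sparse bins. It belongs to the same peak list, so it is not separate support.

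The size of this difference varied with width. For peaks of 200 to 400 bases the median ratios were 3.96 in dense bins (3.66 to 4.57) and 4.11 in sparse bins (3.96 to 4.57), with overlapping intervals. These narrow peaks held a median of only 11 ChIP and 2 input tags in both kinds of bin. Their ratios are therefore coarse, and a difference could be missed there. At 1000 to 1400 bases they were 3.20 (3.05 to 3.38) and 4.20 (4.07 to 4.34). For peaks of at least 2600 bases they were 3.75 (3.45 to 4.14) and 4.94 (4.74 to 5.24). The plot by width shows the ratio increasing from 1000 bases upward in both kinds of bin, with the dense bins below at every width. Peaks with over 10 times the mean input density of the genome, called high-input, were left out of these values.

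**Figure D2:**
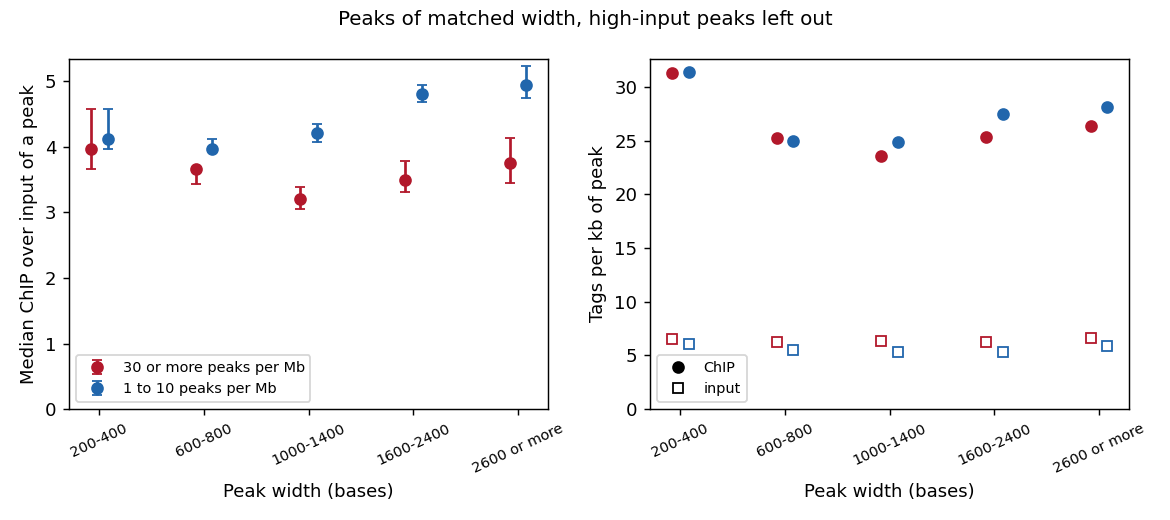
Left, median ChIP over input ratio of peaks (y axis) by peak width in bases (x axis) in dense bins (red) and sparse bins (blue), with 95% intervals of the median. Right, summed ChIP tags (filled circles) and input tags (open squares) per kb of peak in the same classes. At 1000 to 1400 bases the ratio was 3.20 in dense and 4.20 in sparse bins, and the input per kb was higher in dense bins at every width.

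At the centres (midpoints) of peaks that stood alone the ChIP tag density was close in both kinds of bin, and the input was higher in dense bins. Among peaks without another peak within 10 kb, within 0.2 kb of the centre there were 2.81 ChIP tags per 100 bases in the 663 members of this kind and 2.82 in the 5548 peaks of sparse bins. Levels around the peaks were not the same. At 3 to 5 kb from the centre the ChIP library had 0.539 tags per 100 bases in dense bins and 0.361 in sparse bins, and the input had 0.464 and 0.343. The centre thus stood 5.22 times over its surroundings in dense bins and 7.80 times in sparse bins. With the level at 3 to 5 kb subtracted, the ChIP density at the centre was 2.27 tags per 100 bases in dense and 2.46 in sparse bins. Input at the centre was 0.617 tags per 100 bases in dense and 0.552 in sparse bins, 1.33 and 1.61 times its surroundings. The plot of tags around peak centres shows mean ChIP curves of nearly the same height at the centre on unequal floors. Peaks of 1000 to 1400 bases alone gave 2.681 tags per 100 bases at the centre in dense bins (200 peaks) and 2.685 in sparse bins (1949 peaks).

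**Figure D3:**
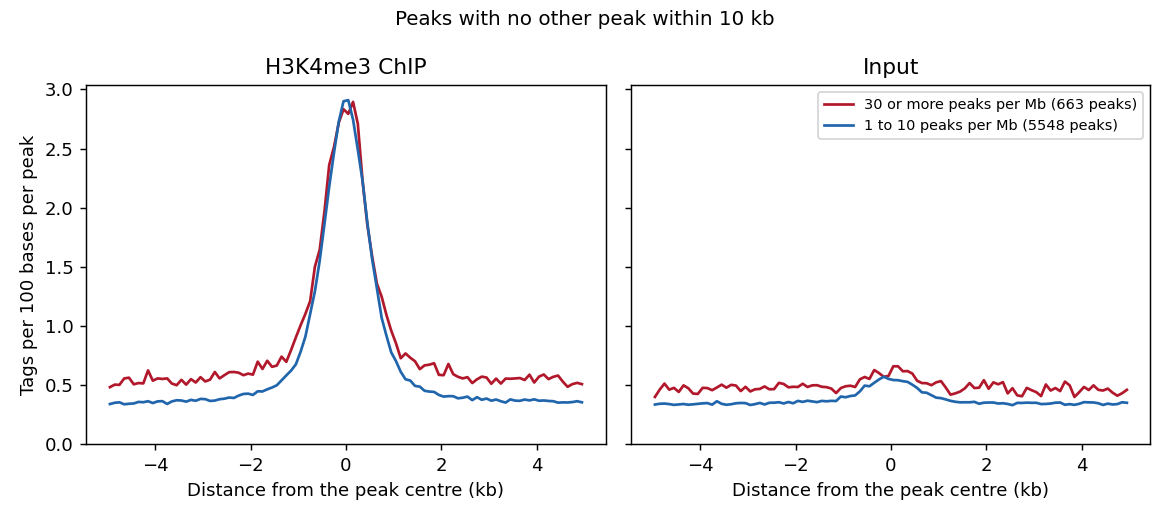
Mean tags per 100 bases per peak (y axis) against distance from the peak centre in kb (x axis), for ChIP (left) and input (right), in peaks without high input and with no other peak within 10 kb, in dense bins (red, 663 peaks) and sparse bins (blue, 5548 peaks). ChIP levels at the centre are 2.81 and 2.82 tags per 100 bases, and both libraries are higher around peaks in dense bins.

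The number of ChIP tags beyond the scaled input was close in both, but per kb it was lower in dense bins. Members without high input had a median excess of 17.3 ChIP tags (16.4 to 18.2), and peaks of sparse bins had 17.7 (17.3 to 18.2). Per kb of peak the medians were 16.4 (16.04 to 16.9) and 18.9 (18.6 to 19.2). Set against the level between peaks of its own bin, a member had a median of 4.86 times the ChIP density, and a peak of a sparse bin 7.98 times.

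Among bins of similar input density, the peak ratios overlapped where input was high. In bins with 4 to 4.5 input tags per kb between peaks, the median ratio was 3.66 for 678 members in 16 dense bins (3.43 to 3.81) and 3.66 for 698 peaks in 106 sparse bins (3.47 to 3.91). In bins with 4.5 to 5 tags per kb it was 3.34 (3.20 to 3.49) and 3.30 (2.97 to 3.45), in 14 and 25 bins. At 5 to 6.5 it was 2.97 (2.74 to 3.13) and 2.94 (2.74 to 3.53). In the 2 lower classes the dense bins had the lower median: at 3.5 to 4 tags per kb it was 3.66 (3.43 to 3.90) against 4.13 (4.00 to 4.27), and at 2.5 to 3.5 it was 4.11 (3.66 to 4.57) against 4.57 (4.57 to 4.74), where the intervals touch. These classes, like the levels relative to the own bin, were set after the values were seen. The share of peaks of at least 2600 bases was larger in dense bins in the 3 middle classes, 10.3% against 3.92%, 9.88% against 3.15% and 9.78% against 6.77%. It was close in the lowest class, 6.02% against 5.67%, and in the highest, 4.06% against 4.17%, and in both of these the median widths were equal.

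Between the peaks both libraries were denser in dense bins. In 1 kb windows at least 1 kb from any peak and without high input, there were 4.28 input tags per kb (exact Poisson interval 4.26 to 4.30) and 4.84 ChIP tags per kb (4.82 to 4.86). In sparse bins the values were 2.998 (2.995 to 3.0004) and 2.950 (2.947 to 2.953). The ratio of ChIP to input there was 1.035 in dense bins (exact Clopper-Pearson interval 1.029 to 1.041) and 0.900 in sparse bins (0.898 to 0.901). The bins were chosen on peaks listed from these same libraries. The ratio between peaks, here and below, is thus a description and not separate support. Such intervals cover only the error of counting, and tags copied by PCR need not come from separate molecules. Windows without an input tag were 12.1% in dense and 14.2% in sparse bins.

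This held on each chromosome with dense bins. The ratio between peaks was higher in dense than in sparse bins on 12 of 12 chromosomes, from 0.975 to 1.08 in dense bins and from 0.875 to 0.920 in sparse bins, so the ranges did not overlap. Input density between peaks was also higher on 12 of 12, from 3.70 to 5.85 against 2.71 to 3.25 tags per kb. Single bins overlapped: the ratio ran from 0.953 to 1.147 with a median of 1.036 over 54 dense bins, and from 0.741 to 1.43 with a median of 0.893 over 1584 sparse bins with at least 1000 input tags. All 54 dense bins lay above the sparse median, and 0.884% of the sparse bins (14) reached the dense median. The highest dense values, 1.147 at chr4:31000001-32000000 and 1.146 at chr14:8000001-9000000, came from bins with 55 and 72 peaks. The next, 1.135 at chr4:30000001-31000000, came from a bin with 32, and chr1:133000001-134000000 with 56 peaks had 1.035. Over the 54 dense bins, peak count and this ratio had a Spearman correlation of 0.389. The lowest dense ratio was 0.953 (0.910 to 0.998) at chr13:74000001-75000000.

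**Figure D4:**
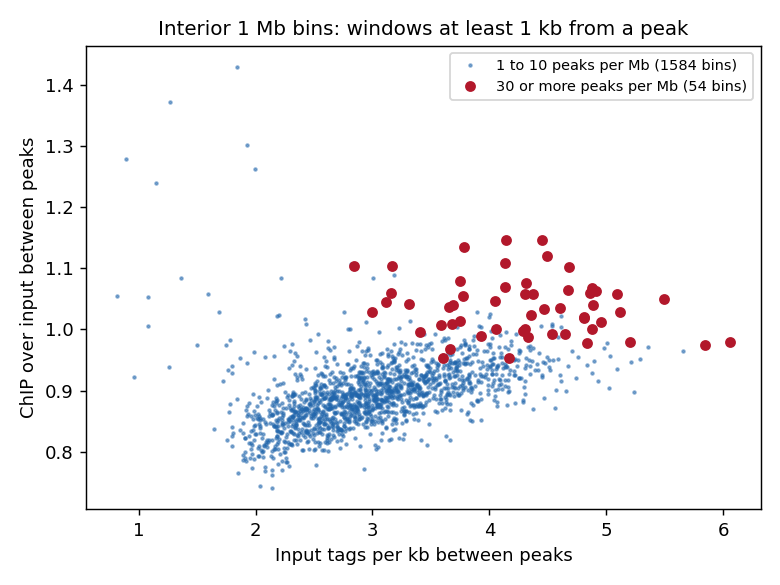
Each point is a 1 Mb bin, placed by its input tags per kb (x axis) and its ChIP over input ratio (y axis) in windows at least 1 kb from any peak, for 54 dense bins (red) and 1584 sparse bins (blue). Dense bins lie at 0.953 to 1.147, and 14 sparse bins reach the dense median of 1.036. The sparse bins run from 0.741 to 1.43.

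The ratio was higher in dense bins at each distance from the peaks that was compared. Windows within 1 kb of a peak had a ratio of 1.22 in dense bins (1.19 to 1.24) and 1.17 in sparse bins (1.15 to 1.18). The values parted farther out: at 5 to 10 kb they were 1.032 (1.018 to 1.046) and 0.926 (0.920 to 0.931), and at 20 to 50 kb 0.997 (0.985 to 1.010) and 0.907 (0.904 to 0.910). At 50 to 100 kb from any peak, which only 3633 windows of dense bins reached, they were 1.012 (0.988 to 1.036) and 0.903 (0.900 to 0.906). Input density in dense bins went from 4.99 tags per kb within 1 kb of a peak to 3.60 at 50 to 100 kb, and in sparse bins from 3.62 to 3.13. Like the ratio, it was higher in dense bins at each of the 7 distances.

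**Figure D5:**
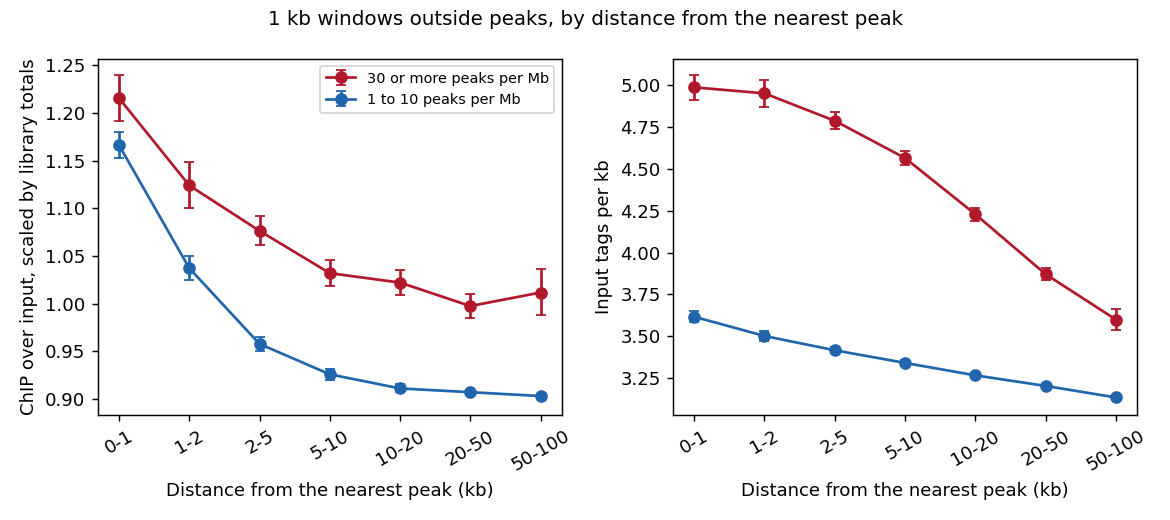
ChIP over input ratio (left) and input tags per kb (right) in 1 kb windows outside peaks, by distance from the nearest peak in kb (x axis), in dense bins (red) and sparse bins (blue). Bars are exact 95% intervals for counting error; the ratio in dense bins stays between 0.997 and 1.032 beyond 5 kb, where sparse bins are at 0.903 to 0.926.

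At matched input density of the bin the ratio between peaks was also higher in dense bins. It was 1.052 (1.032 to 1.073) against 0.893 (0.892 to 0.895) at 2.5 to 3.5 input tags per kb, and 1.050 (1.038 to 1.062) against 0.937 (0.933 to 0.941) at 4 to 4.5. At 5 to 6.5 tags per kb, with 6 dense and 9 sparse bins, it was 1.010 (0.994 to 1.026) against 0.946 (0.933 to 0.958). At similar input density, then, the intervals of the peak ratios overlapped in the 3 upper classes. Those of the ratios between peaks lay apart in all 5, but they cover counting error only, not the spread over bins. The 2 kinds of interval are thus not alike. Single bins overlapped in all 5 classes. At 2.5 to 3.5 tags per kb the dense bin at chr11:124000001-125000000 had 0.995, and a sparse bin had 1.107. At 4 to 4.5 the dense bin at chr13:74000001-75000000 had 0.953, and a sparse bin had 1.025. At 5 to 6.5 the dense bin at chr5:2000001-3000000 had 0.975, and a sparse bin had 0.977.

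Tag-rich members were few. Without high-input peaks, the members held 5 to 188 ChIP tags, and 53 of 2055 (2.58%) held 100 or more, against 121 of 7327 in sparse bins (1.65%). The member with most ChIP tags was chr14:9006401-9011200, with 188 ChIP and 29 input tags and a ratio of 5.93 (3.99 to 9.09). Next came chr1:5291801-5296600 with 183 and 23 tags, and chr4:26113801-26118400 with 181 and 18. The remaining pair of the 5, chr1:128241801-128245600 and chr14:8593001-8598600, had ratios of 4.30 and 4.14. All 5 were 3800 to 5600 bases wide, and their nearest neighbours were 1.2 to 19.8 kb away.

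The highest ratios came from 2 runs of bins. Among members with 100 or more ChIP tags, the 5 highest ratios were taken, and 3 of them lay in 1 bin of chromosome 4, at 26113801 to 26118400 with 9.19 (5.65 to 15.9), at 26197001 to 26199800 with 9.51 (4.97 to 20.4) and at 26271801 to 26274000 with 9.64 (5.19 to 19.8). This bin had the second highest median ratio of all dense bins, 5.18, and the adjoining bin had the highest, 5.32. Both also had few input tags between peaks, 3.17 and 3.16 per kb. Dense bins with fewer had unlike median ratios. At chr1:141000001-142000000 the median ratio was 2.89 with 2.84 input tags per kb. At chr6:137000001-138000000 it was 3.04 with 3.11, and at chr1:128000001-129000000 it was 4.69 with 2.99. The rest of the 5 highest single ratios lay on chromosome 14. The peak at chr14:8929001-8931800 had 121 ChIP and 9 input tags and a ratio of 12.3 (6.26 to 27.5). The peak at chr14:12266001-12268200 had 101 and 8 tags and 11.5 (5.64 to 27.5). The intervals of all 5 overlapped, so their order was not resolved at this depth.

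The 5 widest members without high input had ratios of 1.79 to 3.31, each below the members' median of 3.47, although the members of at least 2600 bases had a median of 3.75. The widest, chr15:98588001-98595600, spanned 7600 bases with 165 ChIP and 71 input tags, a ratio of 2.12 (1.60 to 2.85). The others, 5600 to 6000 bases wide on chromosomes 2, 1, 14 and 7, had ratios of 2.56 (1.86 to 3.56), 2.07 (1.42 to 3.05), 3.31 (2.32 to 4.83) and 1.79 (1.28 to 2.55), so the intervals on chromosomes 2 and 14 held that median. Their input density was 2.16 to 2.96 times that of the genome, and the nearest peak was 0.4 to 9.2 kb away. Over the 2055 members without high input, width and ChIP tags had a Spearman correlation of 0.856 and width and ratio one of -0.04. These are correlations across peaks of the same libraries.

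Finally, 7 members in 5 bins were high in input. They held 10.5% of the members' ChIP tags and 24.8% of their input tags. Nearly all of this came from 2 adjoining regions, chr15:5297201-5315200 with 5176 ChIP and 3762 input tags and chr15:5316001-5332200 with 2800 and 1967. Their ratios were 1.26 and 1.30, and 69.1% of the ChIP tags in each carried the codes U1 or U2, which the input file does not hold. All 42 peaks of their bin together held 63.4% of its ChIP tags, against 12.1% to 36.5% in the other dense bins. With all tags pooled, the members' ratio was 3.03 (2.99 to 3.08), and without the 7 it was 3.61 (3.55 to 3.67), while their median stayed at 3.47. Pooled values over peaks in sparse bins were 3.86 and, without high input, 4.44. U1 and U2 tags made up 20.5% of ChIP tags in members without high input, 21.1% in such peaks of sparse bins, and 18.95% and 17.8% between peaks.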

How the data were processed

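Single-end reads of 36 bases were made, per the labels' protocols. The authors deposited each library as aligned tags, 1 per line, whose score is 0 throughout, and a list of peaks, each with a p-value or q-value under 0.001. Which of these it is and the genome build were not given in the sources used here. The submitters' processing notes name TopHat, an aligner, and SICER, a peak caller, without saying which files each was used for. Tag spans were 36 bases (ChIP, codes U0, U1 and U2) and 38 bases (input, U0 only), so the files were not filtered alike. Each tag was counted at its 5′ end, in peaks, in 1 Mb bins and in 1 kb windows. Chromosome length was the largest tag end. Coordinates are those of the files, written from 1.

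Members, lists and named regions were chosen with earlier results of these data known. The rule for names was the 10 fullest dense bins, the longest runs, bins at the threshold and, among members without high input, the 5 with most ChIP tags, the 5 widest and the 5 highest ratios from 100 ChIP tags upward. Other bins were named after their values were seen. Each sample was 1 library, so no test was run. Intervals are exact (Clopper-Pearson or Poisson) or from order statistics, at 95%. Alternatives changed the bins, the peak threshold, the merging, the tags counted, the scaling and the distance from peaks. Counting and binning were tested on simulated tags. Software was Python 3.11.15 with matplotlib 3.10.9, pandas 2.3.3, scipy 1.17.1 and numpy 2.4.6.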

Additional observations from a re-analysis of the deposited data

How the results depend on the processing

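Alternatives gave 84 values for 12 results, of which 44 left the main value's interval or changed a count by over 1.5 times. Dense bins had the shorter gaps, higher ratio between peaks and higher input density in each alternative run for both kinds of bin (2, 9 and 3). Their median width was larger in 6 of 8 alternatives and equal in 2, and their peak ratio was lower in 10 of 13, equal in 1 and higher in 2. These exceptions were all in bins matched for input density, an alternative chosen after seeing the data. The 30 peaks per bin set the membership: a threshold of 40 left 17 bins with 816 peaks, and merging peaks under 1 kb apart left 36 bins with 1303 merged peaks. Bins cut from 0.5 Mb gave 49 dense bins. The 50% of peaks with the smallest deposited value, at 15 per bin, gave 64, of which 43 were among the 54. In the following pairs the dense bins come first. Merging made the median width 1400 and 1200 bases and the median gap 15 and 96.3 kb. The median peak ratio was 3.05 and 3.72 with at least 5 input tags, 3.66 and 4.44 with tags moved 75 bases, 3.69 and 4.58 scaled by tags outside peaks, and 3.40 and 4.25 with distinct U0 tags. The ratio between peaks was 1.041 and 0.918 with distinct U0 tags, and 1.016 and 0.896 at 5 kb or more from any peak, where input density was 4.11 and 2.98 tags per kb. Input density was 4.29 and 3.01 with high-input windows included, and 4.24 and 2.998 without chromosome 1. In bins of 2.5 to 3.5, 3.5 to 4, 4 to 4.5, 4.5 to 5 and 5 to 6.5 input tags per kb, the peak ratio was 4.11 and 4.57, 3.66 and 4.13, 3.66 and 3.66, 3.34 and 3.30, and 2.97 and 2.94. The ratio between peaks there was 1.052 and 0.893, 1.027 and 0.925, 1.050 and 0.937, 1.032 and 0.9497, and 1.010 and 0.946. The median widths were 1200 and 1200 bases in the first of these classes and 1000 and 1000 in the last. Over the ratio between peaks of the own bin, also added after seeing the data, the peak ratio was 3.34 and 4.82. The causes were not tested. Depth limits single peaks: with a median of 7 input tags, close ratios of single members were not resolved.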

Other observations

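Several values changed by degrees with the number of peaks per bin. The ratio between peaks was 0.844 in interior bins without a peak, 0.884 in bins of 1 to 5, 0.921 in bins of 6 to 10, 0.955 in bins of 11 to 19, 0.996 in bins of 20 to 29, 1.023 in bins of 30 to 39 and 1.062 in bins of 40 or more. Input density between peaks changed most at the low end, from 2.07 tags per kb in bins without a peak to 3.94 in bins of 11 to 19. It was 4.23 to 4.39 from 20 peaks upward. Windows without any input tag made up 27.0% in bins without a peak and 11.0% in bins of 11 to 19, and they are counted in these densities. The median peak ratio was 4.34 in bins of 1 to 5 and 3.76 in bins of 11 to 19, and it was 3.44, 3.47 and 3.47 in the 3 fuller classes. Peaks of at least 2600 bases made up 6.80%, 4.49%, 5.14%, 8.13%, 7.78% and 10.8% of peaks from the sparsest to the fullest class with peaks, so this share was lowest in bins of 6 to 10.

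The chromosomes that the rule leaves out, 10, 16, 19 and 20, had 56 interior bins of 30 or more peaks with 2261 peaks. Their median width was also 1200 bases and their median ratio was 3.53 (3.43 to 3.66), against 3.47 (3.35 to 3.61) in the members, with overlapping intervals. They held a median of 24 ChIP and 6 input tags, and 7.39% of them were 2600 bases or wider, against 8.97% of the members.

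Peaks with a neighbour under 1 kb away differed from isolated peaks in opposite directions in dense and sparse bins. In dense bins their median ratio was 3.41 (3.26 to 3.53), below the 3.88 (3.66 to 4.11) of members with no peak within 20 kb. In sparse bins it was 4.88 (4.57 to 5.15), above the 4.27 (4.22 to 4.36) of peaks with no other within 20 kb. With the nearest peak at 1 to 5 and 5 to 20 kb, the dense medians were 3.33 and 3.53. Close pairs therefore did not stand apart in dense bins. The sparse medians there were 4.11 and 4.035. Without high-input peaks, distance to the nearest peak and ratio had Spearman correlations of only 0.057 in dense and -0.051 in sparse bins. The peaks of a close pair are adjacent pieces of signal and not independent, and this reversal was noticed after the values were seen.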
